A study of Mus musculus with 6 samples.

Results

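The 8 genes described here encode 4 actins (Acta1, Actc1, Actb, Actg1) and 4 tropomyosins (Tpm1, Tpm2, Tpm3, Tpm4). They were chosen by name, not by their values, although earlier results of these data were known. Every probe set that the platform annotation assigns to 1 of them alone was kept, apart from the array's own control probe sets. This gave 19 probe sets, 5 for actins and 14 for tropomyosins, of 45033 tested. The RNA came from C2C12, a mouse myoblast line that forms contractile myotubes when serum is lowered. The knockdown cells, PRDM2_knockdown (3 arrays), had been transfected with PRDM2 shRNA, a short hairpin RNA against the PR domain zinc finger protein PRDM2, known as a histone H3 lysine 9 methyltransferase. The control cells, GFP_control (3 arrays), had been transfected with GFP shRNA. All cells had been in 2% horse serum for 28 hours, and by the labels replicates 1 to 3 of each group are biological.

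Actin monomers assemble into filaments, and tropomyosin dimers lie end to end along them. In striated muscle these form the thin filament, on which troponin and tropomyosin gate the binding of myosin in response to calcium. Acta1 and Actc1 are the skeletal and cardiac alpha-actins, which differentiating myoblasts switch on together, while Actb and Actg1 are the cytoplasmic actins found in nearly every cell. Each tropomyosin gene gives several isoforms through alternative promoters and exons: Tpm1, Tpm2 and Tpm3 make both striated muscle and cytoplasmic forms, and Tpm4 makes mostly cytoplasmic ones. Many actin genes are controlled by serum response factor (SRF), which binds a DNA element called the CArG box. Its coactivators, the myocardin-related factors MRTF-A and MRTF-B, bind actin monomers themselves.

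Promoters of the actins are shown because each of the 3 matched ones holds a CArG box and no matched tropomyosin promoter does. RefSeq promoter windows on GRCm38.p6, from 250 bases before to 50 bases after the annotated start, were matched by symbol for 7 of the 8 genes, in 8 windows. A CArG box, searched on both strands, was found in 3 of the 8 windows, those of Acta1, Actc1 and Actg1, and in none of the 5 tropomyosin windows. Of 32851 promoter windows of the same length, 1.63% hold one. The last 150 bases before each start follow, 5′ to 3′ along the gene, with the CArG box in capitals. They lie at chr8:123894776-123894925 (Acta1), chr2:114052876-114053025 (Actc1) and chr11:120348496-120348645 (Actg1), all on the minus strand.
Acta1: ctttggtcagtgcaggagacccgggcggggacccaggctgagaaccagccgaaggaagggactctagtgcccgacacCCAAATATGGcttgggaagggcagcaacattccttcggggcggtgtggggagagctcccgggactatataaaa
Actc1: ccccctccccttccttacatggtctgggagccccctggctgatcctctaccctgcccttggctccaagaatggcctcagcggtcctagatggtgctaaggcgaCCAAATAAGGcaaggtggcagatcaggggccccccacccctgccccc
Actg1: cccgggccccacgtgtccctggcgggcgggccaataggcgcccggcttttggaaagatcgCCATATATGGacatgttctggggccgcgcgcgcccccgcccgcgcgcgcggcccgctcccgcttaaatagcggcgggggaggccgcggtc
The box begins 73 bases before the annotated start in Acta1, 47 bases before it in Actc1 and 90 bases before it in Actg1. Whether transcription begins at the annotated start was not tested, so these distances hold for the annotation only. The letters CATTCC, the MCAT element bound by TEAD factors, were found on either strand in the windows of Acta1 and Tpm1, against 14.7% of all windows. An E-box, CANNTG, was present in all 8 windows, but 72.3% of all windows hold one. These are letter matches and say nothing of binding in these cells.

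Probe set intensities were read as log2(intensity + 16) after quantile normalization (values given in intensity units are as deposited), so the fold changes of dim probe sets are understated. Median intensity per array ranged over 10.7 to 11.4 units, and having 3 arrays per group limits the precision. The target itself did not separate the groups: the brightest Prdm2 probe set read 6.67, 6.32 and 6.02 log2 units in knockdown replicates 1, 2 and 3, against 6.19, 6.42 and 5.94 in control replicates 1, 2 and 3 (log2 fold change 0.15, SE 0.19, adjusted p = 1.00 with limma). Directions below therefore rest on the labels. All 8 muscle cell markers were measured, and each but Myf5 read 451 intensity units or more on every array. Myog read 10.7 log2 units or more on every array. The 8 measured markers of other cell types (Pecam1, Cdh5, Ptprc, Epcam, Krt8, Adipoq, Sox10 and Snap25) read at most 37.6 intensity units. Myf5 read 29.7 to 177 units and overlapped these. The label of a muscle line was thus borne out by the muscle markers other than Myf5. None of these markers passed with all 6 arrays, and without control replicate 2 Myf5 alone fell (log2 fold change -1.90, SE 0.11, limma adjusted p = 0.0077). The array labelled control replicate 2 stood apart from the other control arrays and close to knockdown replicate 2: the median absolute deviation of the log2 difference over the 11259 brightest probe sets was 0.08 between these 2 arrays, and 0.20 or more in the other 14 pairs. Control replicate 2 lay 0.38 and 0.37 from control replicates 1 and 3, which lay 0.22 apart. Knockdown replicate 2 lay 0.30 and 0.27 from knockdown replicates 1 and 3, which lay 0.20 apart. Whether either array carries the right label, or whether the 2 are independent, cannot be told from the files. This doubt touches every value that uses them, the differences within the pair numbered 2 included. Results that turn on control replicate 2 are therefore also given without it. That removes the control array nearest to a knockdown array, which by itself can set the groups further apart. Without knockdown replicate 2 instead, 0 of all probe sets were called (limma).

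No actin or tropomyosin probe set passed the threshold. With all 6 arrays, 0 of the 19 had an adjusted p at or under 0.05 by limma's moderated test, and 0 had an unadjusted p under 0.05. Over all probe sets the shares were 0% and 2.94%. Without control replicate 2 again 0 of 19 were called, against 0.529% of all probe sets. In 0 of 19 probe sets did the 3 knockdown arrays lie wholly above or below the 3 control arrays, against 7.24% of all probe sets. The 19 fold changes had a median of 0.04 on the log2 scale and a median size of 0.08. Without control replicate 2 the median of the 19 changed sign, to -0.0110. With all 6 arrays, the median over all 45033 probe sets was 0.00 and the median size 0.07, and over the brightest 11259, where all 19 members lie, the median size was 0.10. The exact permutation test of 3 against 3 arrays cannot give a two-sided p below 0.1.

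**Figure D1:**
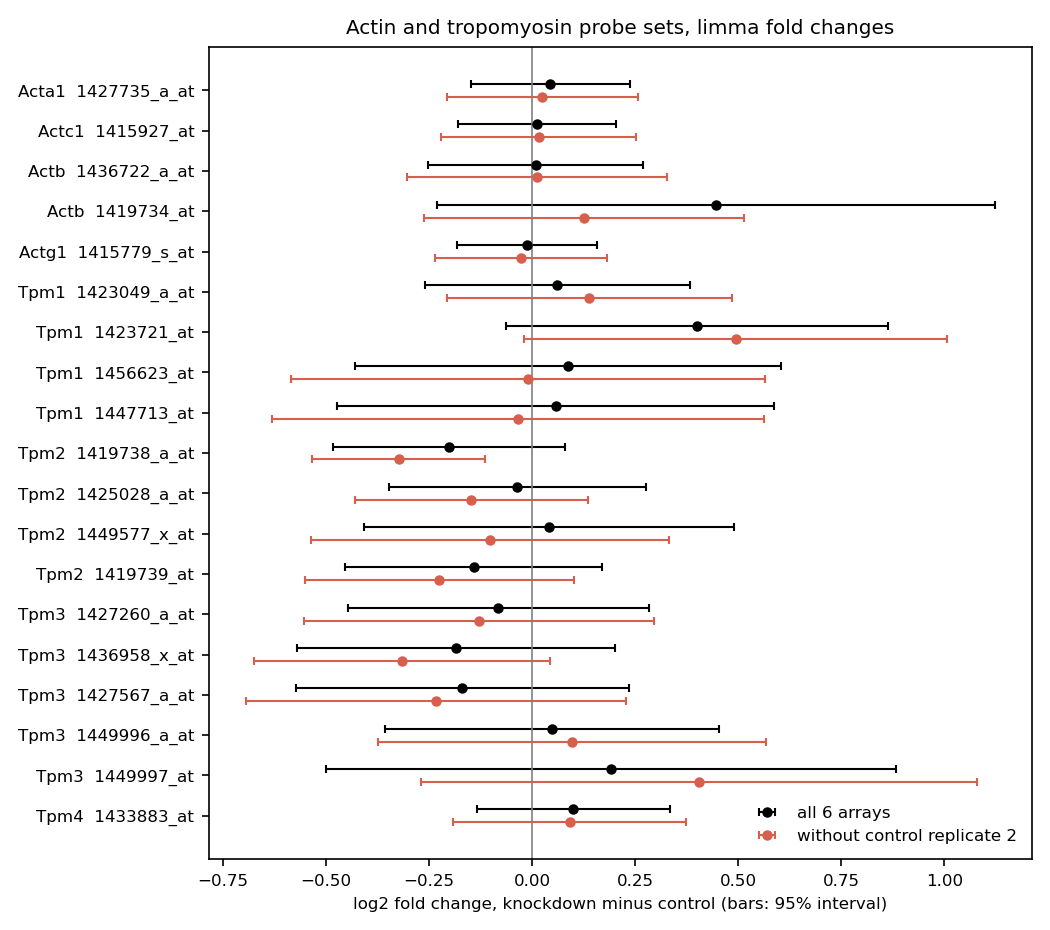
Log2 fold change, knockdown minus control, of the 19 actin and tropomyosin probe sets (points) with limma's 95% intervals (bars), with all 6 arrays (black) and without control replicate 2 (red). With all 6 arrays every interval includes 0, and the values run from -0.20 (Tpm2, 1419738_a_at) to 0.45 (Actb, 1419734_at).

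The striated muscle actins were among the brightest features of the arrays and nearly level across them. Acta1 (probe set 1427735_a_at) read 11.93, 11.86 and 11.96 log2 units in knockdown replicates 1, 2 and 3, against 11.79, 11.83 and 11.99 in control replicates 1, 2 and 3. The groups overlapped, and the 6 arrays spanned 0.20 log2 units after quantile normalization. As deposited, they read 3482 to 4207 intensity units. The fold change was 0.04 on the log2 scale (SE 0.08, 95% interval -0.15 to 0.24, 3 arrays in each group, limma adjusted p = 1.00). In intensity units the means were 3855 ± 133 in knockdown and 3797 ± 372 in control cells (SD, n = 3 each). Actc1 (1415927_at) read 11.69, 11.68 and 11.65 in knockdown replicates 1, 2 and 3, against 11.55, 11.67 and 11.77 in control replicates 1, 2 and 3. All 3 knockdown values lay inside the control range, with a fold change of 0.01 (SE 0.08, 95% interval -0.18 to 0.20, adjusted p = 1.00 with limma). Both probe sets lie above the 99.9th percentile of mean signal. The table has no flag for saturated probes, so whether signal was compressed at the top of the scale was not tested. Quantile normalization sets the brightest values by their rank, which can also narrow the spread of such probe sets.

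Of the cytoplasmic actins, Actg1 was level across the arrays and Actb spread more widely. Actg1 (1415779_s_at) read 11.76, 11.74 and 11.64 in knockdown replicates 1, 2 and 3, against 11.78, 11.70 and 11.70 in control replicates 1, 2 and 3. After quantile normalization its range over the 6 arrays, 0.14 log2 units, was the smallest of the 19 probe sets. As deposited it read 3132 to 3686 intensity units, and ranges were not ranked at that scaling. Its fold change was -0.01 (SE 0.07, 95% interval -0.18 to 0.16). The suffix _s_at marks a probe set whose probes can match transcripts of more than 1 gene, so a share of signal from other actins cannot be told apart. Actb (1436722_a_at) read 11.73, 11.65 and 11.40 in knockdown replicates 1, 2 and 3, against 11.68, 11.59 and 11.48 in control replicates 1, 2 and 3. In both groups replicate 1 was highest and replicate 3 lowest, and the fold change was 0.01 (SE 0.11, 95% interval -0.25 to 0.27).

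**Figure D2:**
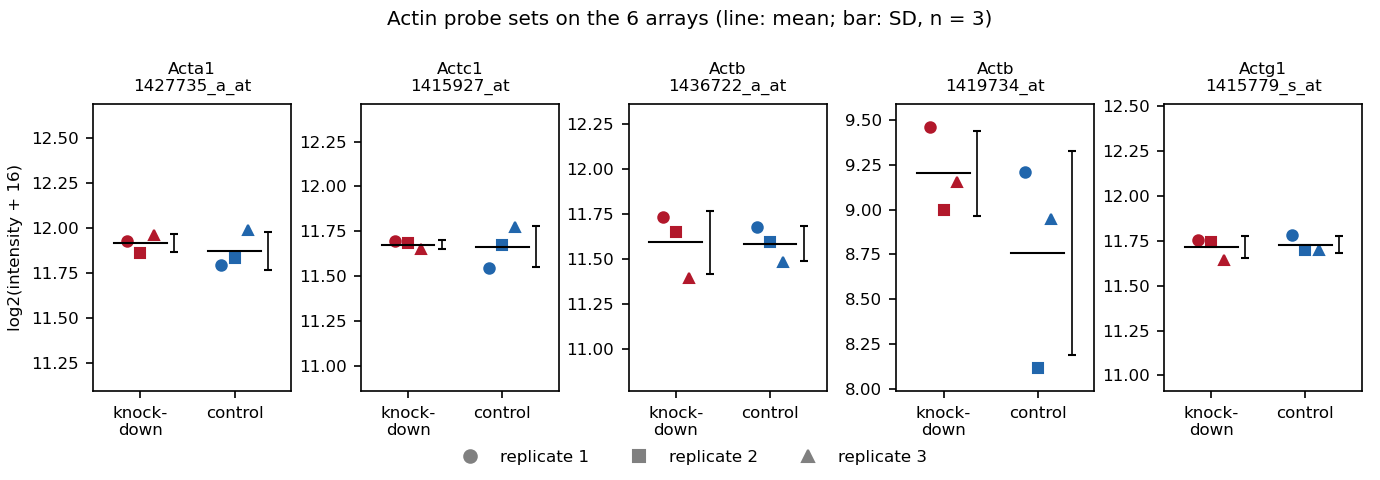
Log2(intensity + 16) of the 5 actin probe sets on each array, knockdown on the left and control on the right of each panel, with symbols for the replicate number, a line at the mean and a bar for the SD (n = 3). All vertical axes span 1.6 log2 units. After quantile normalization the arrays span at most 0.34 log2 units in 4 panels, and in Actb 1419734_at control replicate 2 lies far below the other 5.

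The other Actb probe set, 1419734_at, spread over 1.34 log2 units, the widest range of the 19. It read 734, 494 and 504 intensity units in knockdown replicates 1, 2 and 3, against 609, 269 and 451 in control replicates 1, 2 and 3. On the log2 scale this was 9.46, 9.00 and 9.15 against 9.21, 8.12 and 8.95, and the low value of control replicate 2 set most of the fold change. That fold change was 0.45 (SE 0.28, 95% interval -0.23 to 1.12, adjusted p = 1.00 with limma), and 0.13 (SE 0.16) without control replicate 2. The labels state no pairing, and the replicate numbers were used as pairs on the ground of the data alone. With the number as a block its unadjusted p was 0.020 and its adjusted p 0.63 with limma. That fit uses control replicate 2, whose label is in doubt. With both arrays numbered 2 left out and the block kept, the fold change was 0.23 (SE 0.09, unadjusted p = 0.049, adjusted p = 0.37 with limma). So few arrays remain in that fit that its SEs rest mostly on the variance limma pools over all probe sets. Control replicate 2 and knockdown replicate 2 were otherwise alike, with a median distance of 0.05 over the 11259 brightest probe sets, yet they lay 0.88 apart here. Only 2 of those 11259 probe sets, this one included, lay at least that far apart. The brighter Actb probe set differed by 0.06 between the same 2 arrays.

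The striated actins were also set against the cytoplasmic ones within each array, using the mean of the brightest Acta1 and Actc1 probe sets minus that of Actb and Actg1, relative to the control mean. The balance stood at -0.05, -0.04 and 0.17 log2 units in knockdown replicates 1, 2 and 3, against -0.17, -0.01 and 0.18 in control replicates 1, 2 and 3. Number 3 was the highest in both groups, and the balance averaged 0.03 ± 0.12 in knockdown and 0.00 ± 0.18 in control cells (SD, n = 3 each).

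Tpm1, the alpha-tropomyosin gene of fast and cardiac muscle, has 4 probe sets, all with fold changes above 0, and differences between the probe sets were not tested. The brightest, 1423049_a_at, read 10.99, 11.07 and 11.06 in knockdown replicates 1, 2 and 3, against 10.68, 11.14 and 11.13 in control replicates 1, 2 and 3. Control replicate 1 was the low array, and the fold change was 0.06 (SE 0.13, 95% interval -0.26 to 0.38). Probe set 1423721_at had the smallest unadjusted p of the 19, 0.081 (limma, adjusted p = 1.00). It read 1522, 1121 and 1146 intensity units in knockdown replicates 1, 2 and 3, against 1216, 1105 and 679 in control replicates 1, 2 and 3. Here the low array was control replicate 3. Its log2 fold change was 0.40 (SE 0.19, 95% interval -0.06 to 0.86), 0.49 (SE 0.21) without control replicate 2 and 0.18 without control replicate 3. With the replicate number as a block its unadjusted p was 0.032 and its adjusted p 0.63 with limma. The 2 dim Tpm1 probe sets, 1456623_at and 1447713_at, had fold changes of 0.09 (SE 0.22) and 0.06 (SE 0.22), both turning to -0.01 and -0.04 without control replicate 2. The files do not say which Tpm1 isoforms each probe set reads.

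Tpm2, the beta-tropomyosin gene, has 4 probe sets, 3 of them with fold changes below 0. Its brightest, 1419738_a_at, read 10.84, 10.76 and 10.89 in knockdown replicates 1, 2 and 3, against 11.20, 10.79 and 11.11 in control replicates 1, 2 and 3. Control replicate 2 lay within the knockdown range and the other control arrays above it. The fold change was -0.20 (SE 0.12, 95% interval -0.48 to 0.08, adjusted p = 1.00 with limma). Without control replicate 2 it was -0.32 (SE 0.09, 95% interval -0.54 to -0.11, unadjusted p = 0.0091, adjusted p = 0.24 with limma), the smallest adjusted p of the 19 in that fit. At an unadjusted p under 0.05 that fit holds 1 of the 19 probe sets, this one, against 10.2% of all probe sets. Among the brightest 11259 probe sets, where all 19 lie, that fit holds 2448. Probe sets 1419739_at and 1425028_a_at stood at -0.14 (SE 0.13) and -0.04 (SE 0.13), and 1449577_x_at at 0.04 (SE 0.19). The last turned to -0.10 without control replicate 2, and its suffix marks probes that can also bind other transcripts.

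Tpm3, the tropomyosin gene of slow muscle and of many non-muscle cells, has 5 probe sets, with values on either side of 0. The brightest, 1427260_a_at, read 9.91, 9.96 and 9.55 in knockdown replicates 1, 2 and 3, against 10.14, 9.79 and 9.73 in control replicates 1, 2 and 3 (log2 fold change -0.08, SE 0.15). Probe sets 1436958_x_at and 1427567_a_at stood at -0.18 (SE 0.16) and -0.17 (SE 0.17). The remaining 1449996_a_at and 1449997_at stood at 0.05 (SE 0.17) and 0.19 (SE 0.29). These 2 shared a low control replicate 1, the array on which the other 3 Tpm3 probe sets were highest. The dimmest of the 19, 1449997_at, read 61.6, 106.7 and 63.6 intensity units in knockdown replicates 1, 2 and 3, against 37.9, 97.0 and 71.0 in control replicates 1, 2 and 3, so both arrays numbered 2 were high.

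Tpm4, a mostly cytoplasmic tropomyosin, has 1 probe set, 1433883_at. It read 10.59, 10.44 and 10.35 in knockdown replicates 1, 2 and 3, against 10.49, 10.34 and 10.25 in control replicates 1, 2 and 3. Each knockdown array was higher than the control array of the same number, by 0.10, 0.10 and 0.10 log2 units. The groups still overlapped, and the fold change of 0.10 after quantile normalization had an SE of 0.10 (95% interval -0.13 to 0.33, adjusted p = 1.00 with limma). With the replicate block its SE was 0.07 (adjusted p = 0.72 with limma).

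**Figure D3:**
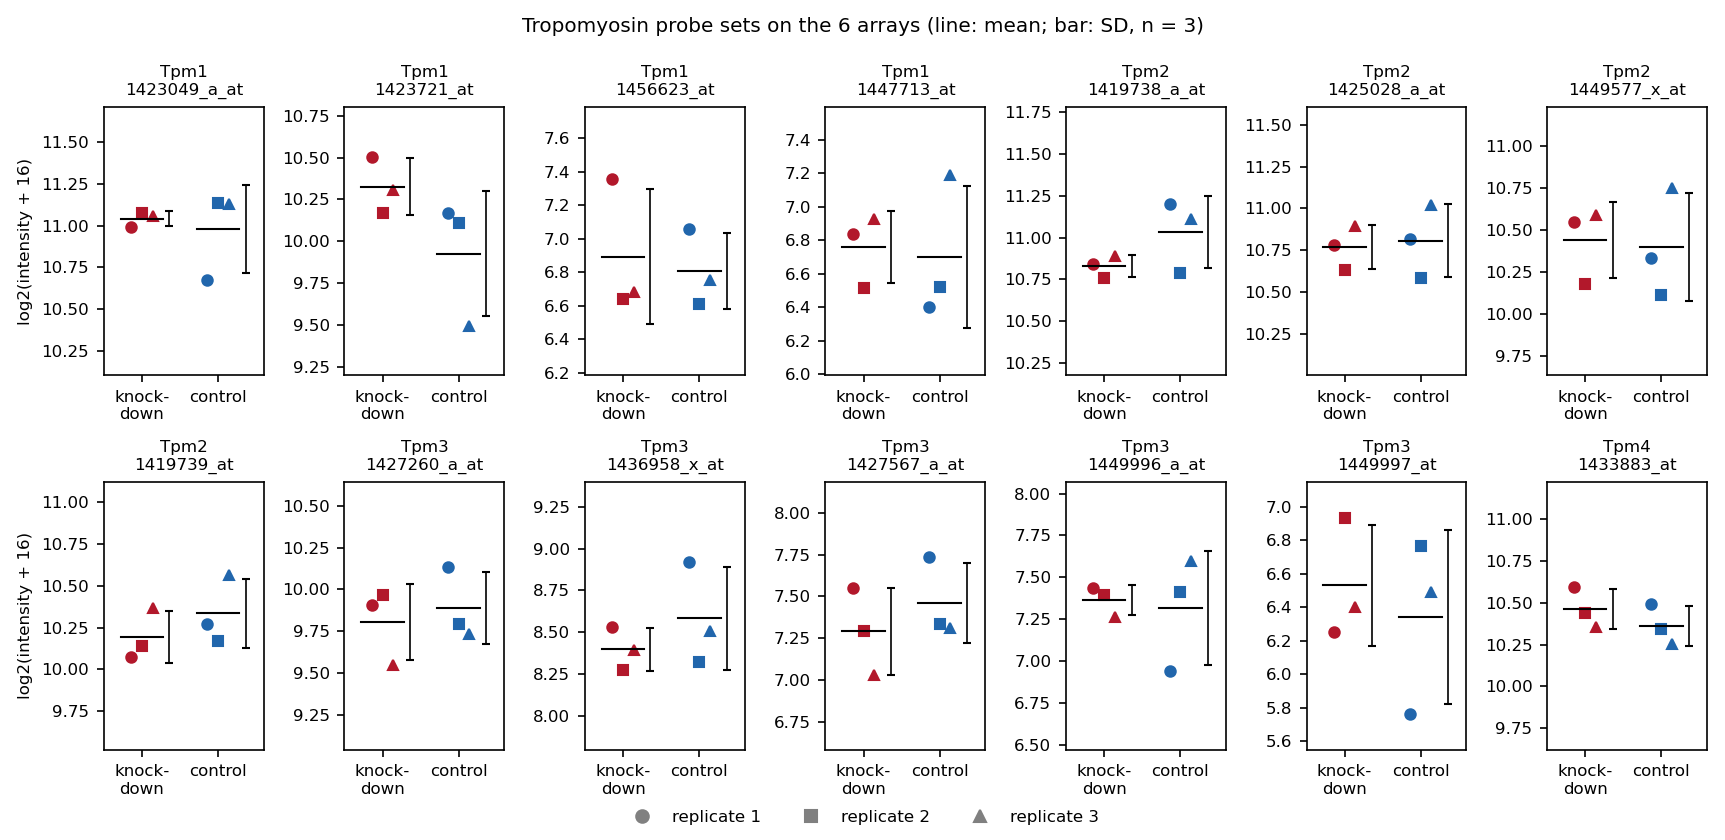
Log2(intensity + 16) of the 14 tropomyosin probe sets on each array, knockdown on the left and control on the right of each panel, with symbols for the replicate number, a line at the mean and a bar for the SD (n = 3). All vertical axes span 1.6 log2 units. The groups overlap in every panel, and in Tpm4 the symbols keep the same spacing in both groups after quantile normalization.

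Within the same-numbered pairs, 7 of the 19 probe sets differed in the same direction in all 3 pairs, against 29.3% of all probe sets. The higher ones were Actb 1419734_at, Tpm1 1423721_at and Tpm4 1433883_at. The lower ones were Tpm2 1419738_a_at and 1419739_at and Tpm3 1436958_x_at and 1427567_a_at. With the replicate number as a block 2 of the 19 had an unadjusted p under 0.05, against 7.84% of all probe sets, and 0 of 19 and 0% passed after adjustment (limma). Both shares were larger among the brightest 11259 probe sets, where all 19 lie. Of these, 3841 kept the same direction in all 3 pairs, and 1646 had an unadjusted p under 0.05 with the block (limma). With both arrays numbered 2 left out and the block kept, 0 of 19 were called, against 1.59% of all probe sets. The smallest adjusted p in that fit was 0.13 (limma), for Tpm1 1423721_at, at a log2 fold change of 0.57 (SE 0.13). With so few arrays left, the SEs of that fit rest mostly on the pooled variance.

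**Figure D4:**
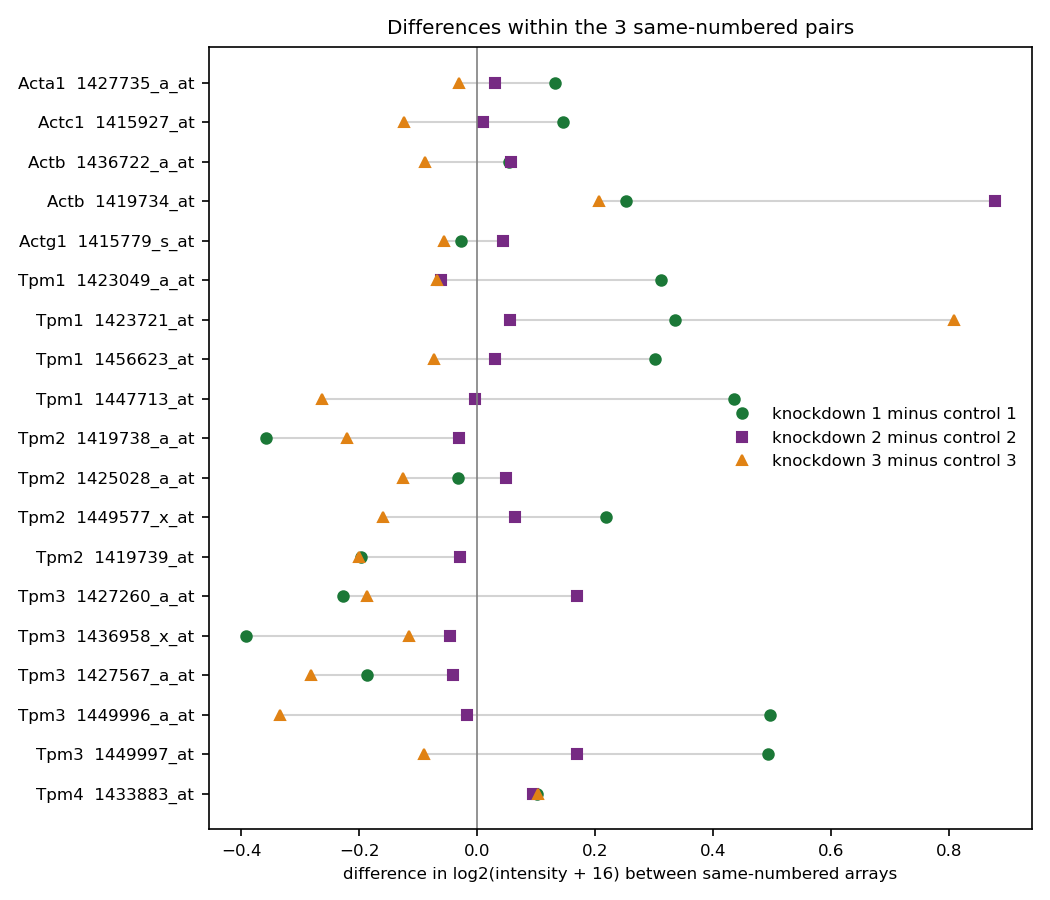
Difference in log2(intensity + 16), knockdown minus control, within each of the 3 same-numbered pairs of arrays, for the 19 probe sets, with a grey line over their range. The pair numbered 2 lies near 0 in most rows but at 0.88 for Actb 1419734_at. The 3 Tpm4 values nearly coincide after quantile normalization.

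The smooth muscle actins, the other members of the family, are given for contrast. Acta2 read 12.03, 11.99 and 11.99 in knockdown replicates 1, 2 and 3, against 11.77, 11.93 and 11.88 in control replicates 1, 2 and 3 (log2 fold change 0.15, SE 0.07, adjusted p = 1.00 with limma). The groups did not overlap, as in 7.17% of all genes by their brightest probe set. Actg2 read 10.04, 9.52 and 9.90 in knockdown replicates 1, 2 and 3, against 8.13, 9.57 and 7.88 in control replicates 1, 2 and 3. Its fold change of 1.30 (SE 0.43, adjusted p = 1.00 with limma) missed the threshold with all 6 arrays and became 1.82 (SE 0.17, adjusted p = 0.022 with limma) without control replicate 2. Whether Actg2 differed from the striated actins in its response was not tested.

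Of 68 partner genes, the smooth muscle actins and genes that build, cap, cut or cross-link actin filaments or control actin transcription, 63 were measured, and 0 rose and 0 fell with all 6 arrays (limma), against 0% of all 18192 genes by their brightest probe set. At an unadjusted p under 0.05 (limma) there were 11 of 63, against 3.72% of all genes. Among the brightest 11259 probe sets, 527 had one. The lists were chosen with earlier results of these data known, so an excess among them cannot be read as a result. Without control replicate 2, 3 rose and 0 fell, against 0.863% of all genes, or 0.456% higher and 0.407% lower. These 3 were Actg2, Tagln and Arpc5. Tagln, the actin-binding protein transgelin, rose by 1.80 (SE 0.18, adjusted p = 0.025), and Arpc5, a subunit of the Arp2/3 nucleator, by 0.85 (SE 0.09, adjusted p = 0.027), although the other Arpc5 probe set pointed the other way. Without knockdown replicate 2 instead, 0 of the 63 were called (limma). With both arrays numbered 2 left out and the block kept, 6 of the 63 were called, against 2.42% of all genes. These calls, too, rest mostly on the variance pooled over all probe sets, as few arrays remain. Actg2, Tagln, Arpc5 and Cnn1 were higher in that fit. Tmod1 (log2 fold change -0.92, SE 0.10) and Daam1 (-1.13, SE 0.11) were lower. Of the 2 other Daam1 probe sets, 1 pointed the other way with all 6 arrays and without control replicate 2.

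By role, the genes at thin filament ends had a median log2 fold change of -0.01 over 15 measured genes with all 6 arrays and -0.04 without control replicate 2. The tropomodulins Tmod1, Tmod2 and Tmod3, which cap the pointed end of tropomyosin-coated filaments, stood at -0.60 (SE 0.61), -0.04 (SE 0.15) and 0.04 (SE 0.23). Without control replicate 2 they stood at -1.25 (SE 0.40), -0.17 (SE 0.12) and 0.26 (SE 0.17), and none passed the threshold in either fit.

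Actin turnover genes had a median of -0.03 over 15 of 16 genes, which changed sign to 0.0465 without control replicate 2. The filament-severing proteins Cfl1, Cfl2 and Dstn stood at -0.05 (SE 0.14), -0.03 (SE 0.10) and 0.03 (SE 0.16), and at -0.10 (SE 0.16), -0.02 (SE 0.11) and -0.09 (SE 0.15) without that array. Actin nucleation genes had a median of -0.04 over 9 of 12 genes, and -0.08 without it. Of the first 3 in that list Actr3 and Arpc1a, both of the Arp2/3 complex, stood at 0.07 (SE 0.08) and -0.13 (SE 0.08), and at 0.04 (SE 0.10) and -0.19 (SE 0.09) without it, while Actr2 was not measured by a probe set naming it alone.

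Crosslinkers and side-binding proteins had a median of 0.18 over 15 of 16 genes, 12 of them above 0, and 0.24 without control replicate 2. The alpha-actinins Actn1, Actn2 and Actn3, which bind filaments side by side, stood at 0.22 (SE 0.24), 0.67 (SE 0.73) and -0.33 (SE 0.27). Without that array they stood at 0.48 (SE 0.17), 1.44 (SE 0.49) and -0.61 (SE 0.20), none past the threshold. The 2 other Actn1 probe sets pointed the other way in that fit. The 7 SRF pathway genes had a median of -0.02, and -0.09 without it. Srf stood at -0.07 (SE 0.08), and the coactivator genes Mrtfa and Mrtfb at -0.26 (SE 0.17) and -0.34 (SE 0.12). Without it Srf stood at -0.12 (SE 0.09), Mrtfa at -0.46 (SE 0.09) and Mrtfb at -0.46 (SE 0.10), again short of the threshold. Over all genes by their brightest probe set the median was -0.0033 with all 6 arrays and -0.0118 without control replicate 2.

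**Figure D5:**
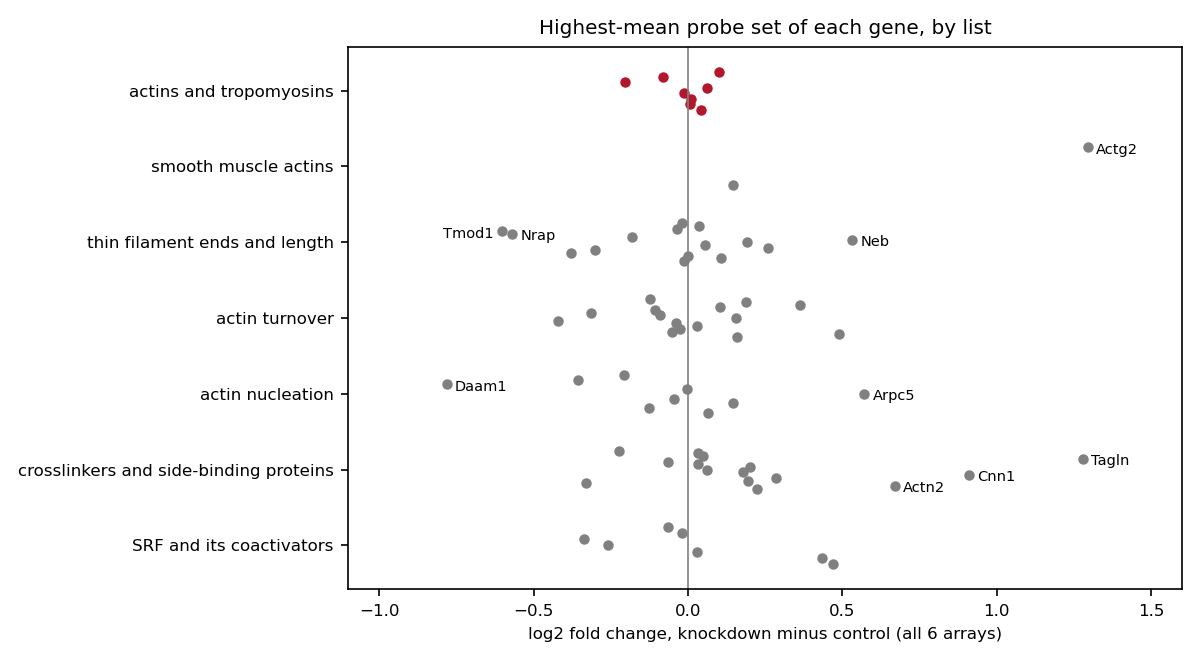
Log2 fold change, knockdown minus control, of each measured gene's highest-mean probe set with all 6 arrays, by gene list, with the actins and tropomyosins in red and genes at 0.5 or more in size labelled. The 8 actin and tropomyosin genes lie between -0.20 and 0.10, and Actg2 and Tagln lie farthest to the right.

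Genes with a like profile were to be named only for members whose brightest probe set ranged over at least 1 log2 unit on the 6 arrays. None of the 8 did after quantile normalization, the widest being Tpm3 at 0.59 and the narrowest Actg1 at 0.14.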

How the data were processed

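Each of 6 Trizol RNA samples was made into biotinylated cRNA and read on its own Affymetrix mouse array, per the labels' protocols. The authors deposited linear intensity values, 1 for each probe set. The authors used GCOS and PLIER, per the submitters' processing notes, with no version or order. How they scaled the arrays to each other is not given in these sources. Of 45101 probe sets, 64 controls were left out, and 4 of Gngt1 whose value in control replicate 2, 14699, is the gene's Entrez number, which leaves 45033 (34941 naming 1 gene).

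Samples were grouped by their titles. The quartiles of the 6 columns differed by up to 0.15 log2 units, so log2(intensity + 16) was quantile normalized. All probe sets were fitted with limma 3.58.1 in R 4.3.3 (lmFit, eBayes, two-sided, no block, Benjamini-Hochberg, threshold 0.05), and the code was tested on simulated data. Genes of the other lists were read at their highest-mean probe set. The members and lists were chosen with earlier results of these data known. Named genes were all members and, of the partner lists, the first 3 genes of each and those past the threshold with all 6 arrays or without control replicate 2. Cell type markers, a separate list, were not under this rule. Cnn1 and Daam1 were added after their values were seen.

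Deviations from the group means correlated at 0.32, 0.60 and 0.62 between same-numbered arrays 1, 2 and 3 over 45033 probe sets, all above the 0.1 set for pairing. The pairing comes from the data, not from a statement in the labels. Control replicate 2, whose label is in doubt, enters all 3 correlations through the control mean. Alternatives were other scalings and offsets, a filter on dim probe sets, 1 value per gene, other variance models, array weights, the replicate block and leaving out arrays.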

Additional observations from a re-analysis of the deposited data

How the results depend on the processing

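The 0 calls among the 19 probe sets held under every alternative tried, at a smallest adjusted p of 0.13 (limma). Over all probe sets there were 0 calls except without control replicate 2 (238 calls), without both arrays numbered 2 (57 calls) and without them but with the replicate block (717 calls). Partner genes called were 3, 1 and 6 in the same fits and 0 in the others. In the fit with 717 calls few arrays remain, and its SEs rest mostly on the variance pooled over all probe sets. The replicate block alone with all 6 arrays gave 0 calls. Of 320 fold changes under alternatives, 290 kept their sign and 30 turned, in 11 of the 19 probe sets, none called in either fit. Outside the fits that leave out 1 array, the turned values were -0.0305 for Actc1 1415927_at, -0.0898 for Tpm1 1447713_at, -0.0744 for Tpm2 1449577_x_at and -0.0576 for Tpm3 1449996_a_at with array weights, -0.0082 and -0.0100 for Tpm2 1449577_x_at with the deposited scaling and with median centring, and -0.017 for Actb 1436722_a_at without both arrays numbered 2, with or without the replicate block. Leaving out 1 array at a time gave fold changes of 0.0045 to 0.10 for Acta1 1427735_a_at, -0.0477 to 0.0649 for Actc1 1415927_at, -0.0621 to 0.11 for Actb 1436722_a_at, 0.13 to 0.67 for Actb 1419734_at, -0.0342 to 0.0218 for Actg1 1415779_s_at, -0.0916 to 0.14 for Tpm1 1423049_a_at, 0.18 to 0.52 for Tpm1 1423721_at, -0.15 to 0.21 for Tpm1 1456623_at, -0.0942 to 0.30 for Tpm1 1447713_at, -0.32 to -0.12 for Tpm2 1419738_a_at, -0.15 to 0.0714 for Tpm2 1425028_a_at, -0.10 to 0.22 for Tpm2 1449577_x_at, -0.23 to -0.0267 for Tpm2 1419739_at, -0.16 to 0.0475 for Tpm3 1427260_a_at, -0.32 to -0.0152 for Tpm3 1436958_x_at, -0.30 to -0.033 for Tpm3 1427567_a_at, -0.14 to 0.19 for Tpm3 1449996_a_at, -0.0982 to 0.40 for Tpm3 1449997_at and 0.0351 to 0.16 for Tpm4 1433883_at. The Actb 1419734_at value rests on control replicate 2 and the Tpm1 1423721_at value on control replicate 3. Leaving out 1 array gave between 0 and 238 calls over all probe sets, between 0 and 3 among partner genes and 0 among the 19. The number of arrays limits the precision.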

Other observations

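The array's own Actb control probe sets, which were kept out of every count, give 3 further readings of the gene at the deposited scaling. The probe set at the 3′ end read 5056, 4166 and 3843 intensity units in knockdown replicates 1, 2 and 3, against 4653, 3939 and 4238 in control replicates 1, 2 and 3. The one in the middle read 3194, 2623 and 2208 in knockdown replicates 1, 2 and 3, against 2989, 2615 and 2338 in control replicates 1, 2 and 3. The one at the 5′ end read 3159, 2867 and 2254 in knockdown replicates 1, 2 and 3, against 2879, 2828 and 2392 in control replicates 1, 2 and 3. The mean differences, knockdown minus control, were 0.02, 0.01 and 0.02 log2 units for the 3′, middle and 5′ probe sets. In none of the 3 was control replicate 2 low as in Actb 1419734_at: it differed from the mean of the other control arrays by -0.17, -0.02 and 0.11 log2 units.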
